A study of Rattus norvegicus with 8 samples.

Results

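The genes described here are steroid hormone receptors, 2 of their coactivators and the enzyme that makes estradiol in brain: Esr1, Esr2, Pgr, Nr3c1, Nr3c2, Esrrg, Ncoa1, Ncoa2 and Cyp19a1. They were taken by name, as the non-control spots whose gene name equals one of the 9 symbols, a rule that uses no measured value. The array carried 8 of the 9 names, in 39 of 43379 spots and 12 probes, and no spot was named Ncoa1. The 8 genes stand among 35199 gene names on the array. Of the 8, 5 could be quantified in every rat, out of 20787 genes quantified over the whole array.

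RNA was taken from the dentate gyrus of 8 adult female Sprague-Dawley rats, each ovariectomized (OVX) a week before hormone treatment began and each given status epilepticus (SE) with kainic acid. In the COS group 4 rats had received oil, and in the CES group 4 rats had received estradiol (E2) replacement. Per the labels, kainic acid was given at 16 mg/kg, SE was ended with pentobarbital after 5 h, and E2 was given as 4 doses of 2 µg at intervals of 24 h, with 2 doses before SE and 2 after. The paper's methods give another dose of kainic acid, end SE with diazepam, place all E2 before SE and do not place tissue collection at a single time, so the time since the last E2 dose is not settled. All rats had both OVX and SE, and rats without SE were not analysed here. Each of 4 two-colour arrays held 2 rats of the same group, one labelled with Cy3 and one with Cy5, so each rat has its own dye channel and the arrays are nested in the groups.

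Steroid receptors of this family are proteins that bind a hormone inside the cell and then bind DNA and change transcription. Esr1 and Esr2 encode the estrogen receptors alpha and beta, and Pgr encodes the progesterone receptor, itself a classical target of the estrogen receptors. Nr3c1 encodes the glucocorticoid receptor and Nr3c2 the mineralocorticoid receptor. Both bind corticosterone in the hippocampus, the mineralocorticoid receptor with the higher affinity. Ncoa1 and Ncoa2 encode p160 coactivators, which hormone-bound receptors recruit. Cyp19a1 encodes aromatase, which converts androgens to estrogens, and Esrrg encodes an orphan receptor related to the estrogen receptors that does not bind estradiol.

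The value behind each of these genes is the signal of a 60-base oligonucleotide. The 5 probes printed here are the ones on which detection of Esr1, Esr2, Pgr, Ncoa2 and of the upstream part of Nr3c2 rests. No annotation of coding bounds was used here, so exon and UTR are not given from the files. From general knowledge of these transcripts the 5 lie in coding sequence. Positions are those the files give for the rat build rn4, and letters are written 5′ to 3′ as the files list them. The Esr1 probe A_44_P401615 lies at chr1:35660062-35660121 on the plus strand. The Esr2 probe A_44_P442569 lies at chr6:98692012-98693324 on the minus strand, a stretch longer than the probe. The Pgr probe A_44_P359587 lies at chr8:5838704-5842236 on the plus strand, also longer than the probe. The Ncoa2 probe A_43_P12695 lies at chr5:5268916-5268975 on the plus strand. The Nr3c2 probe A_44_P158441 lies at chr19:32587188-32587247 on the minus strand.
Esr1: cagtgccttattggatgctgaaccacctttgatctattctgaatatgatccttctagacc
Esr2: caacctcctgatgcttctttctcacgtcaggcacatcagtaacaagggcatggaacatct
Pgr: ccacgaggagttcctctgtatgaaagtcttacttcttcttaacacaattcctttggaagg
Ncoa2: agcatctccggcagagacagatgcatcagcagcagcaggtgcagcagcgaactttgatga
Nr3c2: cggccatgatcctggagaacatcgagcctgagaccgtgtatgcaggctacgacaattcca

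The other probes are given by position. Nr3c2 has a further probe, A_43_P15261, at chr19:32528010-32528068 on the minus strand. It starts at base 5566 of the transcript, 2890 bases after the start of the probe printed above, and from the same general knowledge beyond the coding sequence. Nr3c1 has 3 probes on the minus strand of chromosome 18, likewise placed beyond the coding sequence: A_43_P15242 at chr18:32371565-32371626, A_44_P1003794 at chr18:32371607-32371666 and A_44_P477376 at chr18:32371932-32371991. The positions of the first and the second share 20 bases. The Cyp19a1 probe A_44_P212582 lies at chr8:57651982-57652041 on the minus strand, and the Esrrg probe A_44_P393299 at chr13:104404626-104404685 on the plus strand. A second Pgr probe, A_44_P205815, has no position in the files. Esr1, Esr2 and the first Nr3c1 probe were each spotted 10 times on an array, and every other probe once.

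Detection came first. The scanner software marks a spot as well above background when its signal clears the local background by a significance test and by a margin, and spots flagged as outliers in any rat were left out. By that mark Nr3c1 and Nr3c2 were detected in all 8 rats. Ncoa2 and Pgr were each detected in 3 of 4 COS rats and 2 of 4 CES rats. Cyp19a1 was detected in 2 COS rats and no CES rat, Esr2 in no COS rat and 1 CES rat, and Esr1 and Esrrg in no rat. Detection of the members also depended on the call used: 2 genes passed in all 8 rats by the scanner's mark, 5 when a spot needed 2 times its background, 4 at 3 times, and 4 when its net signal had to exceed that of 95% of the negative controls in its channel.

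**Figure D1:**
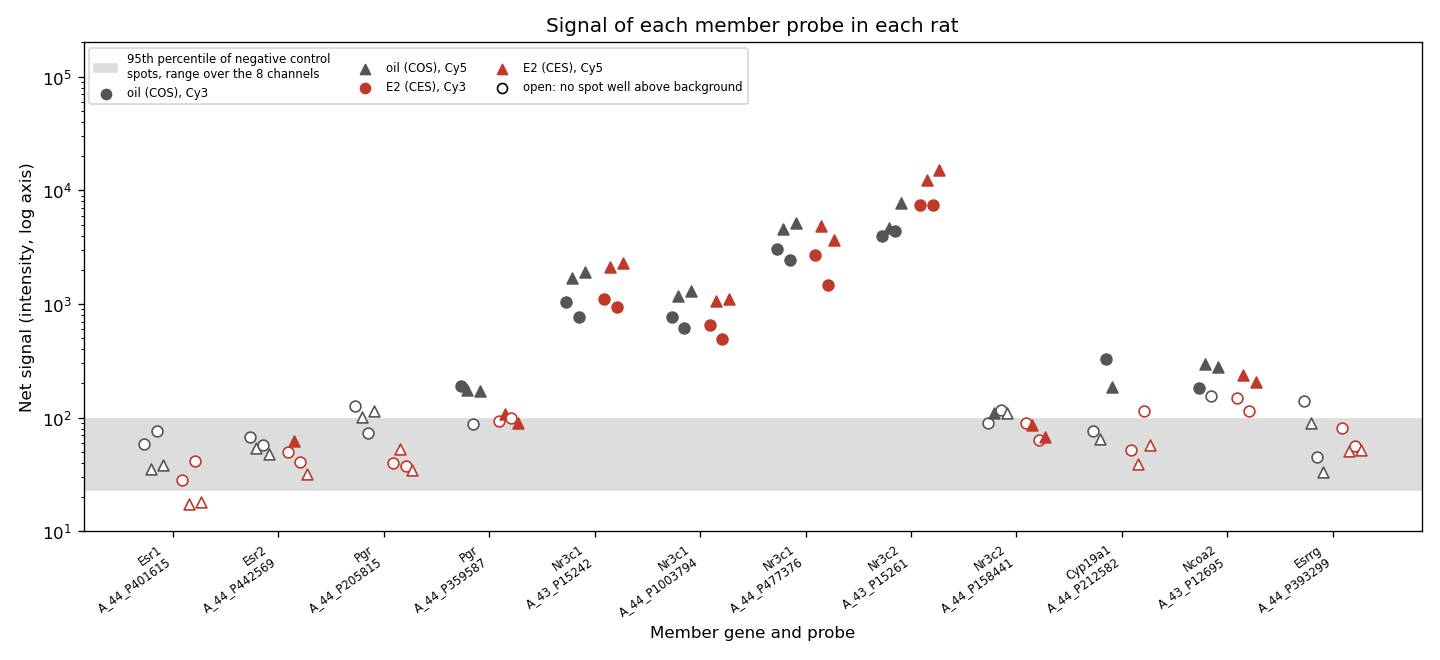
Net signal of each member probe (intensity, mean minus local background, log axis) in each of the 8 rats; a point is the median over the unflagged spots of the probe, filled where at least 1 spot was well above background. Circles are Cy3 and triangles Cy5, and the grey band spans the upper limit of the negative controls (their 95th percentile) over the channels. The Nr3c1 probes and Nr3c2 A_43_P15261 sit far above it. The Esr1 and Esr2 points lie within or below it, though some exceed the limit of their own channel.

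Across the whole array, 69.4 to 88.4% of the spots of a rat reached 2 times their background, 19543 to 28488 spots were well above it, and none was saturated. Within each dye the share at 2 times background was lower in CES. Among Cy3 rats it was 86.5 and 88.4% in COS and 76.5 and 80.2% in CES. Among Cy5 rats it was 79.7 and 74.2% in COS and 72.7 and 69.4% in CES. The median valid spot of a channel is thus taken over a larger share of the spots in COS. Limma called 1206 genes higher and 5144 lower in CES, at an adjusted p under 0.05, and the median gene differed by -0.22 on the log2 scale. That split depends on the scaling: 3380 were higher and 1778 lower when each channel was scaled by the spots that every rat shared as valid. Differences are therefore given also relative to the median gene. Leaving out COS rat 3 left 63 calls, while 6324 genes still had an unadjusted p under 0.05 by limma, beside 8934 with all rats. In COS rat 2 all 6 quantified choroid plexus markers had their highest value, with Ttr at 9.23 on the log2 scale against 3.58 to 7.61 in the other rats. CES rat 2 stood nearer to COS than the other CES rats in several genes, such as Npy, at 7.05 against 4.80 to 5.60 in them and 7.27 to 7.70 in COS. The tissue label was checked against granule cell markers: Prox1 and Tdo2 were well above background in no rat and Dsp in 5, while C1ql2, Calb1 and Neurod1 were in all 8.

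Nr3c2, the mineralocorticoid receptor, was the 1 member that differed between the groups by the test. Its level was the log2 of the linear mean over both probes, relative to the median valid spot of the channel. It was 2.64, 2.05, 3.24 and 2.45 in COS rats 1 to 4. In CES rats 1 to 4 it was 3.82, 3.34, 4.25 and 4.00. Every CES rat was above every COS rat, by a narrow margin between CES rat 2 and COS rat 3. The means were 2.60 ± 0.49 (SD, n = 4) and 3.85 ± 0.38 (SD, n = 4). The difference was 1.26 on the log2 scale (SE 0.23, limma adjusted p = 0.00538), which is 2.39-fold, and 1.48 relative to the median gene, 2.79-fold. Among all genes 5.80% were called higher and 24.7% lower.

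The rise of Nr3c2 was that of a single probe. A_43_P15261 had net signals of 3970, 4632, 4349 and 7678 in COS rats 1 to 4 and of 7477, 12264, 7458 and 15057 in CES rats 1 to 4. Its difference was 1.28 on the log2 scale (SE 0.23, limma adjusted p = 0.00496). The upstream probe A_44_P158441 had net signals of 90 to 118 in COS and 64 to 90 in CES, and was well above background in 1 COS rat and 2 CES rats. Its difference was -0.22 (SE 0.21, limma adjusted p = 0.450), or 0.02 relative to the median over probes. A difference between the parts of the transcript that the probes read was not tested.

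Within each dye the gene-level difference of Nr3c2 had the same sign, 1.10 among the 4 Cy3 rats and 1.42 among the 4 Cy5 rats. Leaving out the rats that stood apart gave 1.15 without COS rat 2 (limma adjusted p = 0.0173), 1.39 without COS rat 3 (limma adjusted p = 0.0527) and 1.35 without CES rat 2 (limma adjusted p = 0.00140). Over the 24 alternatives other than each probe taken alone the difference ran from 1.06 to 1.72, always above 0, and passed the threshold in 22. Their adjusted p ran from 9.72e-06 to 0.0917. The call was also lost with the methods' t-test (adjusted p = 0.0917), which called no gene of the array.

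**Figure D2:**
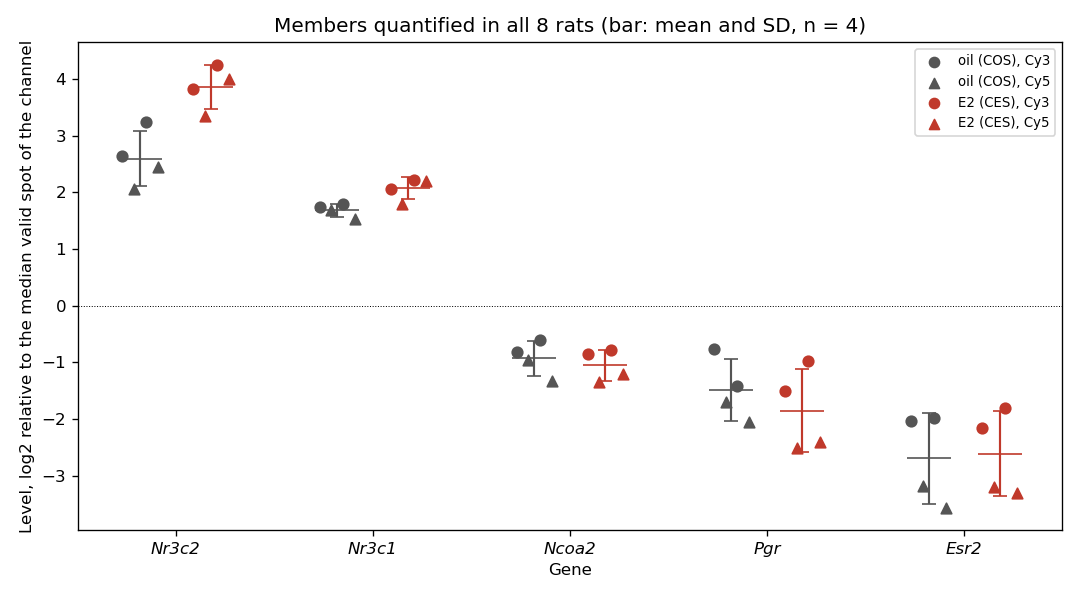
Level of the 5 members quantified in every rat (log2 relative to the median valid spot of the channel), by gene, for COS in grey and CES in red; bars give the mean and SD of 4 rats, circles are Cy3 and triangles Cy5. Nr3c2 and Nr3c1 lie higher in every CES rat than in any COS rat, and the groups overlap in Ncoa2, Pgr and Esr2.

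Nr3c1, the glucocorticoid receptor, was higher in every CES rat than in any COS rat, but did not pass the test. Its level was 1.75, 1.69, 1.79 and 1.52 in COS rats 1 to 4 and 2.06, 1.80, 2.22 and 2.20 in CES rats 1 to 4. The lowest CES value, in rat 2, lay just above the highest COS value, in rat 3. The means were 1.69 ± 0.12 (SD, n = 4) and 2.07 ± 0.20 (SD, n = 4), and the difference was 0.38 on the log2 scale (SE 0.17, limma adjusted p = 0.105), or 0.60 relative to the median gene. So the values of 2 of the 5 quantified members did not overlap with CES above. Over all genes 1.72% did so with CES above and 18.2% with CES below. The Cy3 rats gave 0.38 and the Cy5 rats 0.39. Without CES rat 2 it was 0.46 (limma adjusted p = 0.0640), without COS rat 2 0.42 (limma adjusted p = 0.148) and without COS rat 3 0.40 (limma adjusted p = 0.214). The lowest value with 1 rat left out was 0.22, without CES rat 4 (limma adjusted p = 0.259).

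Whether Nr3c1 was called depended on the processing. The loess values were made after normexp background correction with an offset of 50, and the deposited values from median signals. With loess within arrays it was 0.63 (limma adjusted p = 0.0145), with quantile normalization 0.73 (limma adjusted p = 0.0214), with scaling over shared valid spots 0.75 (limma adjusted p = 0.0236) and in the deposited log2 values 0.65 (limma adjusted p = 0.0283). Over spots well above background in all rats it was 0.82 (limma adjusted p = 0.0159). Relative to the median gene of each setting these 5 values were 0.53 to 0.67, beside 0.60 in the setting reported. Its adjusted p ran from 0.0145 to 0.645 over 24 alternatives, with the difference above 0 in all of them.

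The 3 Nr3c1 probes did not move alike. A_43_P15242, with 9 usable spots, differed by 0.41 (SE 0.17, limma adjusted p = 0.0883), and within a rat its spots varied with a coefficient of variation of 7.95 to 25.3%. A_44_P1003794, which shares part of its position, differed by 0.02 (SE 0.17, limma adjusted p = 0.932). A_44_P477376 was flagged in 1 rat and left out of the fit. It averaged 3.04 ± 0.20 in CES (SD, n = 4) beside 3.11 ± 0.23 in COS (SD, n = 4), a difference of -0.07 given as a description. All 3 were well above background in all 8 rats, and with flagged spots kept the gene differed by 0.29.

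**Figure D3:**
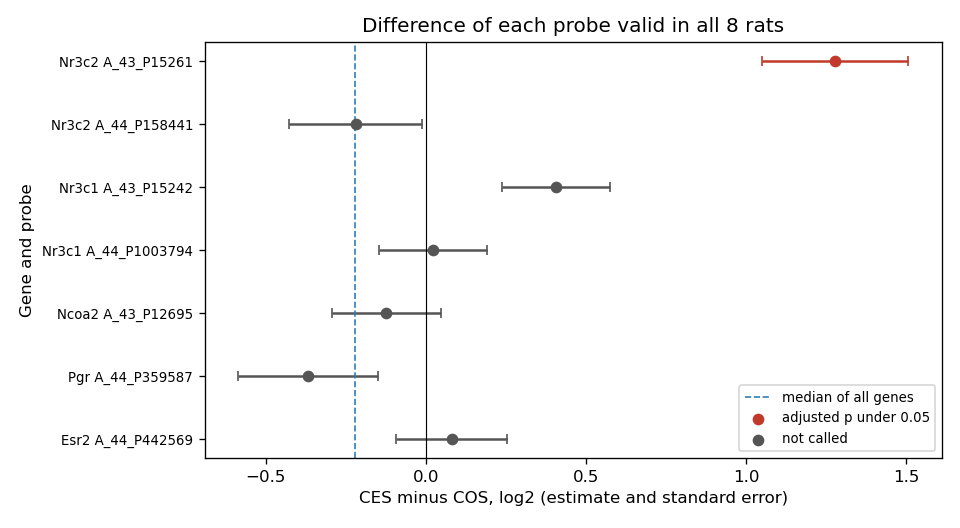
CES minus COS of each member probe valid in all 8 rats (log2, estimate and standard error of the limma fit over all probes), with the median of all genes as a dashed line. The Nr3c2 probe A_43_P15261, at 1.28, is the only one called, and the probes of Nr3c2 and of Nr3c1 differ among themselves.

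The balance of the receptors for corticosterone was taken as the level of Nr3c2 minus that of Nr3c1 in the same rat, a difference in which the scaling of the channel cancels. It was 0.90, 0.37, 1.45 and 0.93 in COS rats 1 to 4 and 1.76, 1.55, 2.03 and 1.80 in CES rats 1 to 4. Each CES rat was above each COS rat. The mean rose from 0.91 ± 0.44 (SD, n = 4) to 1.78 ± 0.20 (SD, n = 4), a change of 0.87 on the log2 scale or 1.83-fold. This is a change of a ratio between the groups and not a ratio of transcript numbers, since the probes differ. It follows from the values already given and was not tested apart from them, and it rests on the same single Nr3c2 probe. It lay between 0.69 and 1.05 when 1 rat was left out.

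Markers of several cell types also differed between the groups, not all in the same direction. In bulk tissue fewer cells of a type and less RNA per cell cannot be told apart. Over all genes 5.80% were called higher and 24.7% lower, a split that depended on the scaling. Of 4 CA1 pyramidal cell markers 3 were called higher in CES and none lower. The summed level of the 4 was 2.19 to 2.72 in COS and 2.92 to 4.33 in CES, on a log2 scale. Among the 3 called, Fibcd1 was well above background in 2 of 8 rats and its groups overlapped. Of 6 quantified interneuron markers 3 were lower and none higher, with a summed level of 8.43 to 9.10 in COS and 6.64 to 8.17 in CES. That sum is carried by Npy and Sst, the most abundant of them, while Gad1, at -0.53, and Gad2, at -0.55, were not called, nor was Pvalb, at 0.54. Astrocyte markers held 3 higher and none lower of 7. Gfap, not called among them, was at -1.19 (limma adjusted p = 0.0653), lower in every CES rat than in any COS rat. Granule cell markers held 1 higher and 2 lower of 5, microglial markers 1 higher and 2 lower of 6. Endothelial markers held 1 higher and 2 lower of 4, CA2 and CA3 markers 1 higher of 3 each, and markers of thalamus and hypothalamus 2 lower of 6. None of 2 mossy cell, 6 oligodendrocyte and 6 choroid plexus markers passed. Nr3c2 is known to be expressed in pyramidal and granule cells. The part of a changed mix of cells in its difference was not tested.

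Ncoa2, the p160 coactivator also called GRIP1 or TIF2, showed no difference that the test could find. Its level was -0.82, -0.95, -0.60 and -1.34 in COS rats 1 to 4 and -0.85, -1.35, -0.79 and -1.21 in CES rats 1 to 4, and the groups overlapped. Net signals were 156 to 295 in COS and 114 to 238.5 in CES. The means were -0.93 ± 0.31 (SD, n = 4) and -1.05 ± 0.27 (SD, n = 4). The difference was -0.12 (SE 0.17, limma adjusted p = 0.609), or 0.10 relative to the median gene, and its sign turned to 0.08 to 0.24 under the 4 settings that moved the median gene above 0 while keeping this probe. No alternative called it.

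**Figure D4:**
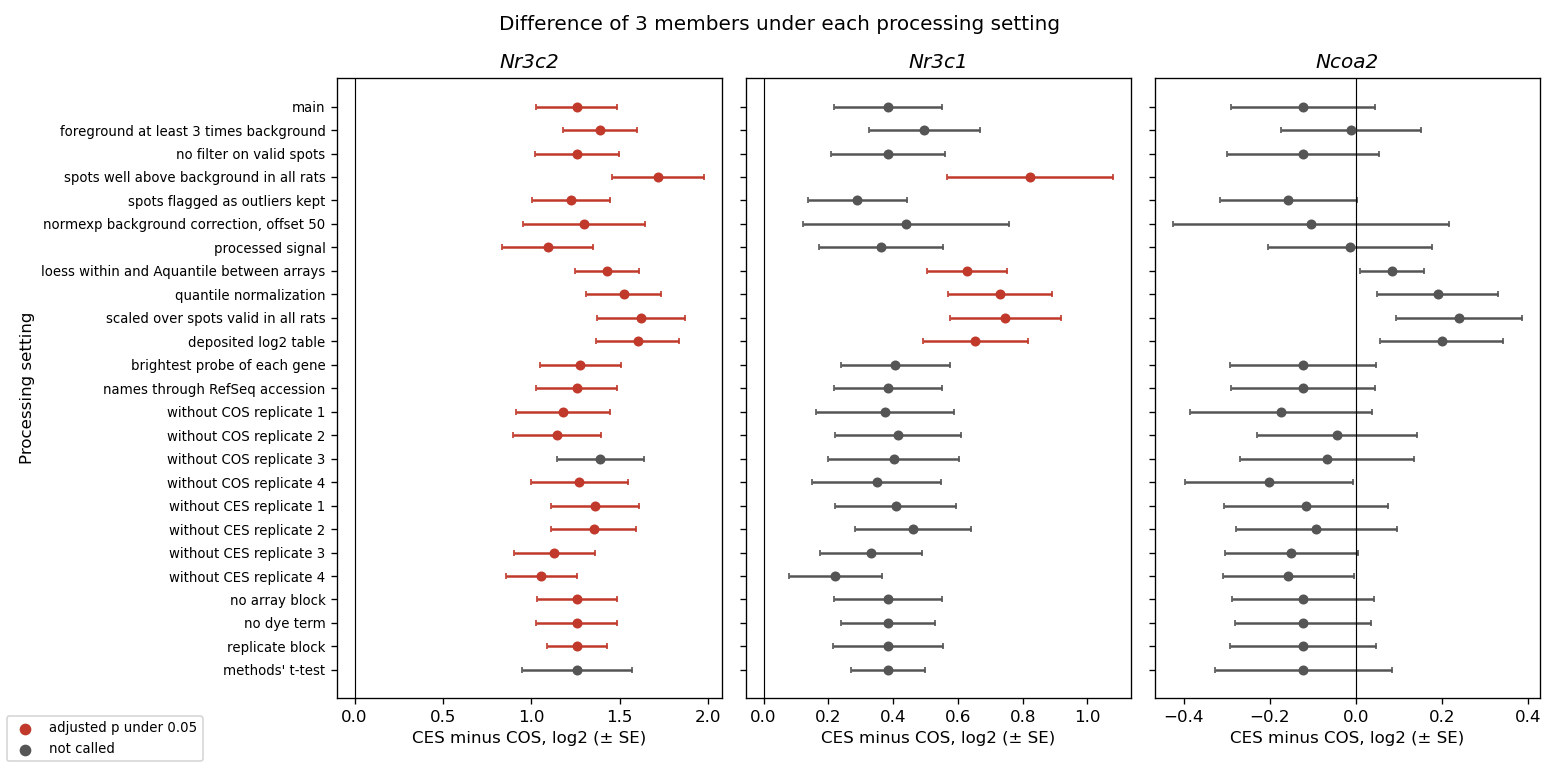
CES minus COS (log2, with standard error) of Nr3c2, Nr3c1 and Ncoa2 under each processing setting, in red where the adjusted p was under 0.05. Nr3c2 stays at 1.06 or above in all settings drawn, Nr3c1 is called in 5 alternatives, and Ncoa2 changes sign between settings.

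Pgr was near background. Its probe A_44_P359587 had net signals of 191.5, 175, 88.5 and 172 in COS rats 1 to 4 and of 94, 107, 100 and 89 in CES rats 1 to 4. As levels these were -0.76, -1.71, -1.42 and -2.05 in COS and -1.51, -2.51, -0.98 and -2.41 in CES, with overlap and with the Cy5 rats lower than the Cy3 rats. The difference was -0.37 (SE 0.22, limma adjusted p = 0.225), or -0.15 relative to the median gene. It was below 0 in all 23 alternatives, from -0.61 to -0.0040, and called in none. The other Pgr probe was well above background in no rat, with net signals of 73 to 128 in COS and 35 to 53.4 in CES. Pgr was called higher in the E2-replaced rats under no setting run.

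The estrogen receptors were near or below background. Of the 10 Esr1 spots 2 were flagged, and in the other 8 the net signal ran from 26.3 to 113.5 in COS and from 9.60 to 75.5 in CES, while the 95th percentile of the negative controls was 23.0 to 98.1 per channel. None of these 32 readings in either group was well above background. Against the negative control limit of their own channel, 15 of 32 readings in COS and 2 of 32 in CES lay above it. The flagged Esr1 spots would have counted as well above background in CES rats 3 and 4, so detection there turns on the outlier flag. No Esr1 spot was valid in all rats and no difference was fitted in the main fit. With no filter on valid spots Esr1 was fitted and not called.

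Of the 10 Esr2 spots 4 were flagged. In the other 6 the net signal ran from 34.1 to 96 in COS and from 23.5 to 70 in CES, and 2 of 24 readings in CES, both in rat 2, were well above background. With flagged spots counted, CES rat 4 would also have had 1. Above the negative control limit of their own channel lay 8 of 24 readings in COS and 12 of 24 in CES, mostly in Cy5 rats. A single spot was valid in all rats. Its level was -2.04, -3.19, -1.98 and -3.57 in COS rats 1 to 4 and -2.15, -3.20, -1.80 and -3.31 in CES rats 1 to 4, so the Cy5 rats lay below the Cy3 rats in both groups and the groups overlapped. The difference was 0.08 (SE 0.17, limma adjusted p = 0.753), while over all 6 unflagged spots the means differed by -0.095. It was called only with scaling over shared valid spots, at 0.44 (limma adjusted p = 0.0331), and fell under 0 in 3 of 22 alternatives.

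Cyp19a1 was well above background in COS rats 3 and 4 alone. Net signals were 77, 64.5, 330 and 187 in COS rats 1 to 4 and 52, 39.3, 114 and 57.6 in CES rats 1 to 4. The values of the groups overlapped, and the brightest CES rat was above the dimmest COS rats. On the scale of the other members its mean level was -1.67 ± 1.53 in COS (SD, n = 4) and -2.54 ± 1.33 in CES (SD, n = 4). That difference of -0.87 is given as a description. After loess and Aquantile the COS mean was 1.15-fold the CES mean, each taken over 4 rats. Those channels carry an added offset of 50, which draws ratios of dim signals toward 1. Only 2 COS rats and no CES rat were well above background, so this ratio is not a lower bound. The gene was not valid in all rats and was not tested in the main fit. With no filter on valid spots all 8 members on the array were fitted, and Nr3c2 alone was called. Esrrg had net signals of 140.5, 90, 45.5 and 33.1 in COS rats 1 to 4 and of 82, 50.6, 56 and 52 in CES rats 1 to 4. No Esrrg spot was well above background, so no fold is given.

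For each quantified member the gene names with the most similar profile over the 8 rats were ranked by Pearson r of the log2 levels. Nr3c2 was followed by Gna14 (r = 0.997), a G protein alpha subunit, and Kcnn2 (r = 0.993), a calcium-activated potassium channel. Gna14 differed by 1.21 between the groups (limma adjusted p = 0.00571) and Kcnn2 by 1.13 (limma adjusted p = 0.00554). Nr3c1 was followed by the unnamed transcript TC589209 (r = 0.995) and Wnt4 (r = 0.994), a secreted Wnt ligand. Ncoa2 was nearest to Ednra (r = 0.996) and Fam21c (r = 0.995). The nearest profiles to Pgr were those of the unnamed probe A_44_P859124 (r = 0.989) and Vkorc1l1 (r = 0.988), and to Esr2 those of the olfactory receptor names Olr1630 (r = 0.996) and Olr183 (r = 0.995). The points share dyes, arrays and groups.

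The rest of the pathway was read from 6 lists. Coregulators of steroid receptors held 24 genes, all quantified, of which none was called higher, 7 lower and 17 not, with a median difference of -0.40 beside -0.22 for all genes. Of all genes 24.7% were lower and 5.80% higher, so 7 of 24 is near that background. Without COS rat 3 no coregulator was called. The direction of these calls turned under 4 settings, called scalings here. Loess, scaling over shared valid spots and the deposited log2 values each gave 3 higher and none lower. Quantile normalization gave 2 higher and none lower. Of these settings, loess and the deposited values differ from the main fit in more than the scaling. Hdac1, a corepressor-associated histone deacetylase, fell by 0.84 (limma adjusted p = 0.0193). Prmt1, an arginine methyltransferase, was at -0.62 (limma adjusted p = 0.0286) and Phb2, a repressor of estrogen receptor activity, at -0.61 (limma adjusted p = 0.0329). Those 3 kept their sign but lost the call under each of these 4 scalings. Ncoa3, the third p160 coactivator, was called lower at -0.57 (limma adjusted p = 0.0328) with overlapping groups. The corepressor Ncor1 was at 0.28 (limma adjusted p = 0.213), and was called higher under all 4 scalings, at 0.55 to 0.64. Nrip1, a corepressor, was at 0.30 (limma adjusted p = 0.489).

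Of 28 other nuclear and membrane steroid receptors 21 were quantified, with 2 higher, 3 lower and 16 not called. Over all genes 5.80% were higher and 24.7% lower. The median difference of the list was 0.00 beside -0.22 for all genes, or 0.22 relative to the median gene. Rxrg, a retinoid X receptor, rose by 1.41 (limma adjusted p = 0.00572). Nr1h3 and Nr1h2, the liver X receptors alpha and beta, fell by 1.66 (limma adjusted p = 0.00530) and by 1.08 (limma adjusted p = 0.00935). These 3 kept sign and call under the 4 scalings, and none passed without COS rat 3, at adjusted p of 0.0532, 0.0630 and 0.0715. Esrra, an orphan relative of the estrogen receptors, was at -0.27 (limma adjusted p = 0.283). Gper1, the membrane estrogen receptor, listed as Gper on the array, was well above background in no rat.

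Receptor chaperones, which hold the receptors ready for hormone, gave no call by limma among 13 quantified genes of 15, with a median difference of -0.28, and 3 had an unadjusted p under 0.05. The methods' t-test after Benjamini-Hochberg adjustment called no gene of the array, so its lack of calls here adds no evidence. With the replicate block 2 were called lower, and 1 was called higher under loess, quantile normalization and scaling over shared valid spots. Hsp90aa1 was at -0.31 (limma adjusted p = 0.328) and Fkbp4 at -0.28 (limma adjusted p = 0.279). Hsp90ab1 was at 0.16 (limma adjusted p = 0.557), and is the gene called higher under those 3 scalings, at 0.44 to 0.52.

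Genes known to respond to estrogen receptors in some tissue included no gene called higher in the E2-replaced rats. Of 27 listed, 19 were quantified, 12 were lower and 7 not called, beside 24.7% lower and 5.80% higher over all genes. The median difference was -0.70, beside -0.22 for all genes. Under the 4 scalings 1 or 2 were higher and 6 to 8 lower. Gal, the neuropeptide galanin, fell by 3.45 (limma adjusted p = 0.00421). Penk, proenkephalin, fell by 2.71 (limma adjusted p = 0.00666) and Myc, a growth-related transcription factor, by 2.64 (limma adjusted p = 0.00370). All 3 kept the call under the 4 scalings and lost it without COS rat 3, at adjusted p of 0.0532 to 0.0757. These genes are also known to respond to neuronal activity or injury. Greb1 was not found on the array by name.

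Genes known to respond to the glucocorticoid receptor were also mostly called lower. Of 26 listed, 22 were quantified, with 1 higher, 13 lower and 8 not called, beside 5.80% higher and 24.7% lower over all genes. The median difference was -1.0. The 4 scalings gave 1 or 2 higher and 9 or 10 lower. Cdkn1a, a cell cycle inhibitor and p53 target, fell by 3.00 (limma adjusted p = 0.00259), Cebpd, a transcription factor of the inflammatory response, by 2.64 (limma adjusted p = 0.00372), and Dusp1, a MAP kinase phosphatase, by 1.98 (limma adjusted p = 0.00305). Sgk1, a kinase induced through both corticosterone receptors, fell by 1.42 (limma adjusted p = 0.00450). Gjb6, an astrocyte connexin, rose by 2.30 (limma adjusted p = 0.00727). Without COS rat 3 the list held 2 calls, both lower. Cdkn1a kept its call there (limma adjusted p = 0.0494), and Cebpd, Dusp1, Sgk1 and Gjb6 lost theirs, at adjusted p of 0.0522 to 0.0660. Fkbp5 and Tsc22d3, often used as readouts of glucocorticoid receptor activity, were not called: Fkbp5 was at -0.19 (limma adjusted p = 0.431) and Tsc22d3, also called Gilz, at 0.12 (limma adjusted p = 0.787). Neither was called under the 4 scalings.

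Steroid converting enzymes held 17 genes, 14 quantified, with 1 higher, 6 lower and 7 not called, beside 5.80% higher and 24.7% lower over all genes, and a median difference of -0.45. Under the 4 scalings 1 was higher and 1 or 2 lower. Hsd17b12 was at -1.02 (limma adjusted p = 0.00546), Srd5a1, a 5-alpha reductase, at -0.97 (limma adjusted p = 0.00972) and Hsd17b1, which makes estradiol from estrone, at -0.87 (limma adjusted p = 0.0170). Of these Hsd17b12 alone kept its call under the 4 scalings, and all 3 lost it without COS rat 3, at adjusted p of 0.0584 to 0.107. Hsd11b1, which regenerates corticosterone inside cells, was at 0.10 (limma adjusted p = 0.710).

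**Figure D5:**
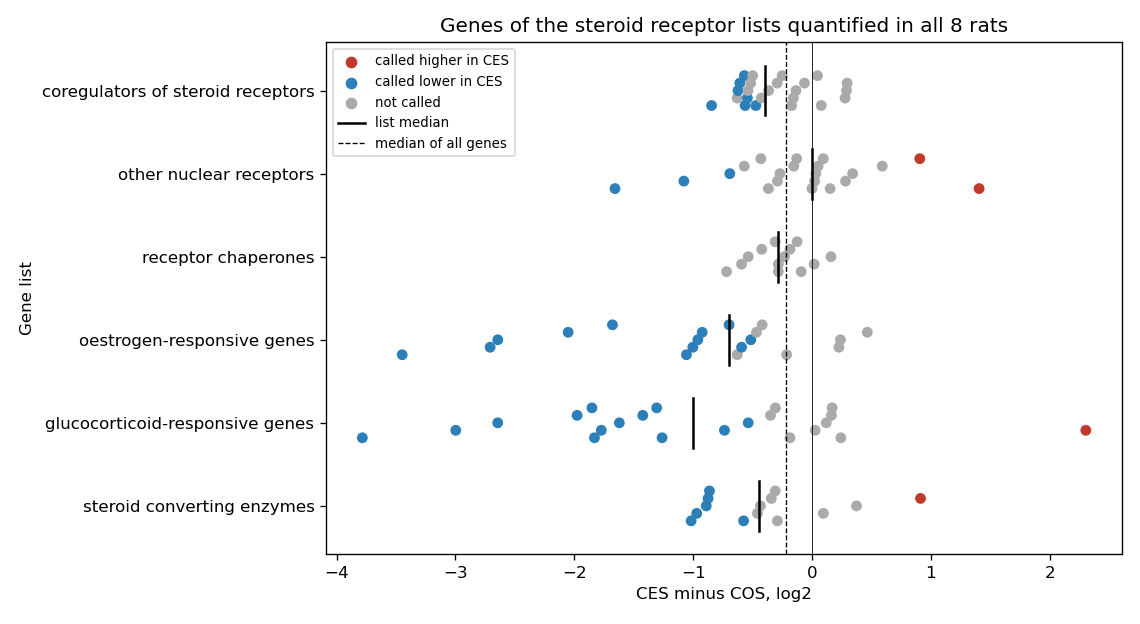
CES minus COS (log2) of every gene of the 6 lists quantified in all 8 rats, 1 point a gene, red where called higher in CES and blue where called lower. Black bars are list medians and the dashed line is the median of all genes; the medians run from -1.0 for glucocorticoid-responsive genes to 0.00 for other nuclear receptors.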

How the data were processed

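As deposited, the scanner files give for each channel the mean and median intensity of a spot and of its local background, read with Agilent Feature Extraction 10.7.3.1 before any normalization by the authors. A second deposited file, a log2 matrix, equals the log2 of median signal minus background median up to a constant per channel. Gene names are those of the array design.

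A spot was valid when its mean was at least 2 times the background median, as in the methods, and spots flagged as outliers in any channel were left out. Net signals were scaled to the median valid spot of their channel. A gene took the linear mean over its spots that passed in all 8 rats, and the log2 of that mean. A bright probe therefore weighs more than a dim one. The groups were compared in R 4.3.3 with limma 3.58.1, two-sided, with dye as a term, array as a random block (statmod 1.5.0, correlation 0.02) and Benjamini-Hochberg adjustment at 0.05. The number of rats limits the precision, and the median standard error was 0.20. Tested on simulated data of this layout with 20787 genes, the fit found 91% of the changes of size 2 and 48% of those of size 1 (log2), with 13 false calls among 152. The simulation changed 200 genes, evenly up and down, with independent genes and no scaling difference between channels. The real fit called 6350 genes, so these rates need not hold for it.

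The ratio of group means given for Cyp19a1 used the channels after loess and Aquantile, which followed normexp background correction with an offset of 50. Rats with the same number deviated together (r 0.21 to 0.35), but share a dye. Within a dye r was -0.06 to -0.04, so the numbers were taken as pairing the rats through the dye. No column of another sample was present (0 unused). The members, the lists and the tests were chosen with earlier results of these data known. Genes named are all members with every probe, up to 3 called rises and 3 called falls without overlap per list, fixed stand-ins of each list, and the 2 most similar profiles per member. Some genes of the lists are counted but not reported here by name. Tables and plots were made with Python 3.11.15, pandas 2.3.3, numpy 2.4.6, matplotlib 3.10.9 and the R package data.table (1.17.8).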

Additional observations from a re-analysis of the deposited data

How the results depend on the processing

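Each rat was left out in turn, and the filter, background correction, scaling, probe choice and model were changed. Some settings changed more than one of these. Loess was run after normexp background correction with an offset of 50, so background correction and scaling changed together. The deposited log2 values use median signals and their own set of listed spots. A stricter filter also changed the spots that set the channel median. Where a value moved, the cause was not tested. The number of genes called, 6350 as reported, was 3655 at 3 times background, 3312 over spots well above background and 631 with normexp. It was 0 with the methods' t-test after Benjamini-Hochberg adjustment (5679 at an unadjusted p under 0.05 by that test). With 1 rat left out it was 63 to 7856, lowest without COS rat 3, where limma gave 6324 genes an unadjusted p under 0.05. Higher and lower calls, 1206 and 5144, became 3249 and 2207 with loess, 3009 and 2234 with quantile normalization, 3380 and 1778 with scaling over shared valid spots, 3275 and 1927 in the deposited log2 values and 2428 and 884 over spots well above background. The members called, 1 as reported, were 2 over spots well above background, with loess, with quantile normalization and in the deposited log2 values, 3 with shared scaling, 0 with the methods' t-test and 0 to 1 with 1 rat left out.

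Nr3c1 was called at 0.82 over spots well above background, 0.63 with loess, 0.73 with quantile normalization, 0.75 with shared scaling and 0.65 in the deposited log2 values. Nr3c2 lost the call with the methods' t-test, at 1.26, ran from 1.06 to 1.39 with 1 rat left out, and was -0.22 by A_44_P158441 alone. Ncoa2 turned to 0.084 with loess, 0.19 with quantile normalization, 0.24 with shared scaling and 0.20 in the deposited log2 values. Esr2 turned to -0.042 with no filter and -0.075 with normexp, and ran from -0.0053 to 0.16 with 1 rat left out, below 0 without COS rat 4. Nr3c2 minus Nr3c1 ran from 0.69 to 1.05.

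Coregulator calls, 7 as reported, were 0 at 3 times background and with normexp, 1 with no filter, 2 over spots well above background and with quantile normalization, 3 with the processed signal, loess, shared scaling and the deposited log2 values, 0 with the methods' t-test, and 0 to 11 with 1 rat left out. Other nuclear receptors, 5 as reported, gave 3 over spots well above background, 2 with normexp, 8 in the deposited log2 values, 0 with the methods' t-test and 0 to 7 with 1 rat left out. Chaperones, 0 as reported by limma with 3 at an unadjusted p under 0.05, gave 2 with flagged spots kept, the processed signal or the replicate block, 1 with loess, quantile normalization or shared scaling, 3 with no dye term and 0 to 3 with 1 rat left out. Estrogen-responsive genes, 12 as reported, gave 7 at 3 times background and in the deposited log2 values, 6 over spots well above background, 4 with normexp, 0 with the methods' t-test and 0 to 13 with 1 rat left out. Glucocorticoid-responsive genes, 14 as reported, gave 8 with normexp, 0 with the methods' t-test and 2 to 14 with 1 rat left out. Converting enzymes, 7 as reported, gave 3 at 3 times background and with loess, 4 with no filter, 2 over spots well above background, with quantile normalization, shared scaling and in the deposited log2 values, 0 with normexp and with the methods' t-test, and 0 to 8 with 1 rat left out.

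Members detected in all rats, 2 by the scanner's mark, were 5 at 2 times background, 4 at 3 times and 4 above the negative control limit, the last chosen after seeing the data. With the replicate block, which pairs rats of the same number, Nr3c2 was 1.26 (limma adjusted p = 0.00601) and 6247 genes were called; the chaperones were the one list whose count moved by over 1.5 times. Signal limits what Esr1, Esr2, Cyp19a1 and Esrrg can show: a difference in them was not detectable here or rests on a single spot.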
